A study of Canis lupus familiaris with 18 samples.

Results

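The genes described here carry the insulin signal from the cell surface to the glucose transporter GLUT4. They are 10 genes, the receptor INSR, the docking proteins IRS1 and IRS2, the PI3-kinase subunits PIK3R1 and PIK3CA, the kinases AKT1, AKT2 and GSK3B, the AKT substrate TBC1D4 and SLC2A4, which encodes GLUT4. Every probe set whose only gene symbol in the platform annotation is 1 of these 10 was taken, which gave 15 probe sets of the 43035 on the array. A probe set reads 1 transcript through several short probes. The 10 genes are among 15115 genes that the array reads with a single symbol.

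The samples came from 9 intact female beagles, all 4 years old and all given the same commercial performance diet. After randomisation 4 control dogs (dogs 1, 3, 4 and 9) received what held their body weight and stayed lean, and 5 dogs (dogs 2, 5, 6, 7 and 8) ate ad libitum and became obese. Subcutaneous and gonadal fat of each dog were taken at 24 weeks after a fast overnight, and each piece of fat was hybridised to 1 Affymetrix canine array, 18 in all. Arrays of subcutaneous fat alone had been deposited once before, and a difference between depots cannot be told apart from one between sets of arrays.

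Insulin binds its receptor on the adipocyte, and the receptor, a tyrosine kinase, phosphorylates the IRS docking proteins. These recruit PI3-kinase, whose lipid product brings AKT to the membrane, where AKT phosphorylates GSK3 and the Rab regulator TBC1D4 (also called AS160) and so releases GLUT4 vesicles to the cell surface. Fat and muscle are the main tissues that take up glucose through GLUT4. Most of this control is by phosphorylation and by moving proteins, which transcript levels do not read, and a fast lowers circulating insulin.

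Values are log2 signals, and log2 4 was used as a floor, which 47.2% to 49.0% of probe sets reached in each array. A probe set was tested where at least 4 arrays reached the floor, and 21484 were, among them 11 probe sets of 8 of the 10 genes. INSR and TBC1D4 did not reach testing. All 10 adipocyte markers examined (among them ADIPOQ, PLIN1, LEP and FABP4) lay at or above the floor in all 18 arrays. Transcripts of other tissues stood out in 4 arrays. Skeletal muscle markers were high in subcutaneous fat of control dogs 3 and 4 and gonadal fat of ad libitum dog 2, and markers of ciliated epithelium in subcutaneous fat of control dog 4 and gonadal fat of ad libitum dog 6. The mean level of the 13 muscle markers on the array ran from 4.25 to 11 in subcutaneous control, 3.90 to 5.83 in subcutaneous ad libitum, 4.01 to 4.53 in gonadal control and 3.84 to 9.85 in gonadal ad libitum arrays. That of the 11 ciliated-cell markers ran from 2.52 to 5.46, 2.51 to 2.55, 2.46 to 2.58 and 2.47 to 6.89 in the same order, with 0 of 11 at the floor in subcutaneous ad libitum and gonadal control arrays. Arrays also differed in RNA length, read as the actin 3' minus 5' signal, which is larger where RNA is shorter or less fully copied. It averaged 4.75 ± 1.02 (SD, n = 4) in subcutaneous fat of control dogs and 3.49 ± 0.77 (n = 5) in that of ad libitum dogs (difference -1.27, exact permutation test, two-sided, p = 0.0873).

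Ad libitum feeding moved none of the 8 tested genes past the threshold in either depot. In subcutaneous fat 0 of 8 genes and 0 of 11 probe sets passed (limma, adjusted p from 0.152 to 0.901), where 2.36% of all tested probe sets and 2.31% of all genes did. The share of all probe sets depended on single dogs. It was 0.014%, 0.116%, 0.456%, 0.0512%, 0.0745%, 0.0465% and 0.358% without dog 1, 2, 3, 4, 7, 8 or 9. Without dog 6 it was 2.65% and without dog 5 12.6%, and with the actin signal as a covariate 0.00465%. At an unadjusted p under 0.05, 2 of the 11 stood out, GSK3B and 1 probe set of PIK3R1, both lower in ad libitum dogs, against 23.7% of all tested probe sets. In gonadal fat 0 of 11 passed, the adjusted p was 0.99994 for each, and 0 of 11 had an unadjusted p under 0.05. Over all probe sets the shares there were 0% and 2.47%. The median difference of the 8 genes was 0.17 in subcutaneous and 0.14 in gonadal fat, beside 0.000474 and 0.00465 over all genes tested.

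Between depots 2 probe sets passed. GSK3B was lower in gonadal than in subcutaneous fat of control dogs, 1 of 11 probe sets and 1 of 8 genes, where 2.92% of all tested probe sets and 2.95% of genes passed, 1.80% of genes as lower. A PIK3R1 probe set that does not represent the gene here was higher in gonadal fat of ad libitum dogs, again 1 of 11 probe sets, with 0 of 8 genes, where 7.19% of probe sets, 2.83% as higher, and 7.45% of genes passed. At an unadjusted p under 0.05, 5 of 11 probe sets stood out in control dogs (20.4% of all tested) and 3 of 11 did so in ad libitum dogs (23.5%). A gene with several probe sets is represented by the one with the highest mean. The difference between the depots' feeding responses was called for 0 of 11 probe sets, as for 0% of all tested. Here 2 of 11 had an unadjusted p under 0.05, against 6.26% of all. The share of all probe sets that passed between depots ran from 0.666% (without dog 3) to 4.89% (without dog 6) in control dogs and from 2.31% (without dog 8) to 7.54% (without dog 3) in ad libitum dogs. The feeding and depot comparisons share arrays and are not independent of each other.

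Markers of other cell types also differed in level between the depots, as scores made like the adipocyte score (the median over a list of each gene's signal minus its mean over all arrays). The mesothelium score, over the 6 of 10 markers on the array, ran from 0.987 to 4.01 in gonadal arrays and from -2.62 to -2.38 in subcutaneous ones, save that of control dog 4, at 1.78. That subcutaneous array lay in the range of gonadal fat and enters each comparison that uses subcutaneous control dogs. The stromal score, over 10 of 10 markers, ran from 0.617 to 1.60 and -0.692 to 1.20 in subcutaneous fat of control and ad libitum dogs and from -1.03 to 0.332 and -0.765 to -0.111 in gonadal fat. The macrophage score, over 12 of 12, ran from -0.225 to 1.12 and -0.424 to 1.55 in subcutaneous and from -0.86 to 0.00849 and -1.26 to -0.0382 in gonadal fat. Endothelial scores overlapped, between -0.812 and 0.573 over all arrays. The part of these cells in the depot differences given for GSK3B, PIK3R1, IRS1, IRS2, AKT2 and GAB1 was not tested.

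**Figure D1:**
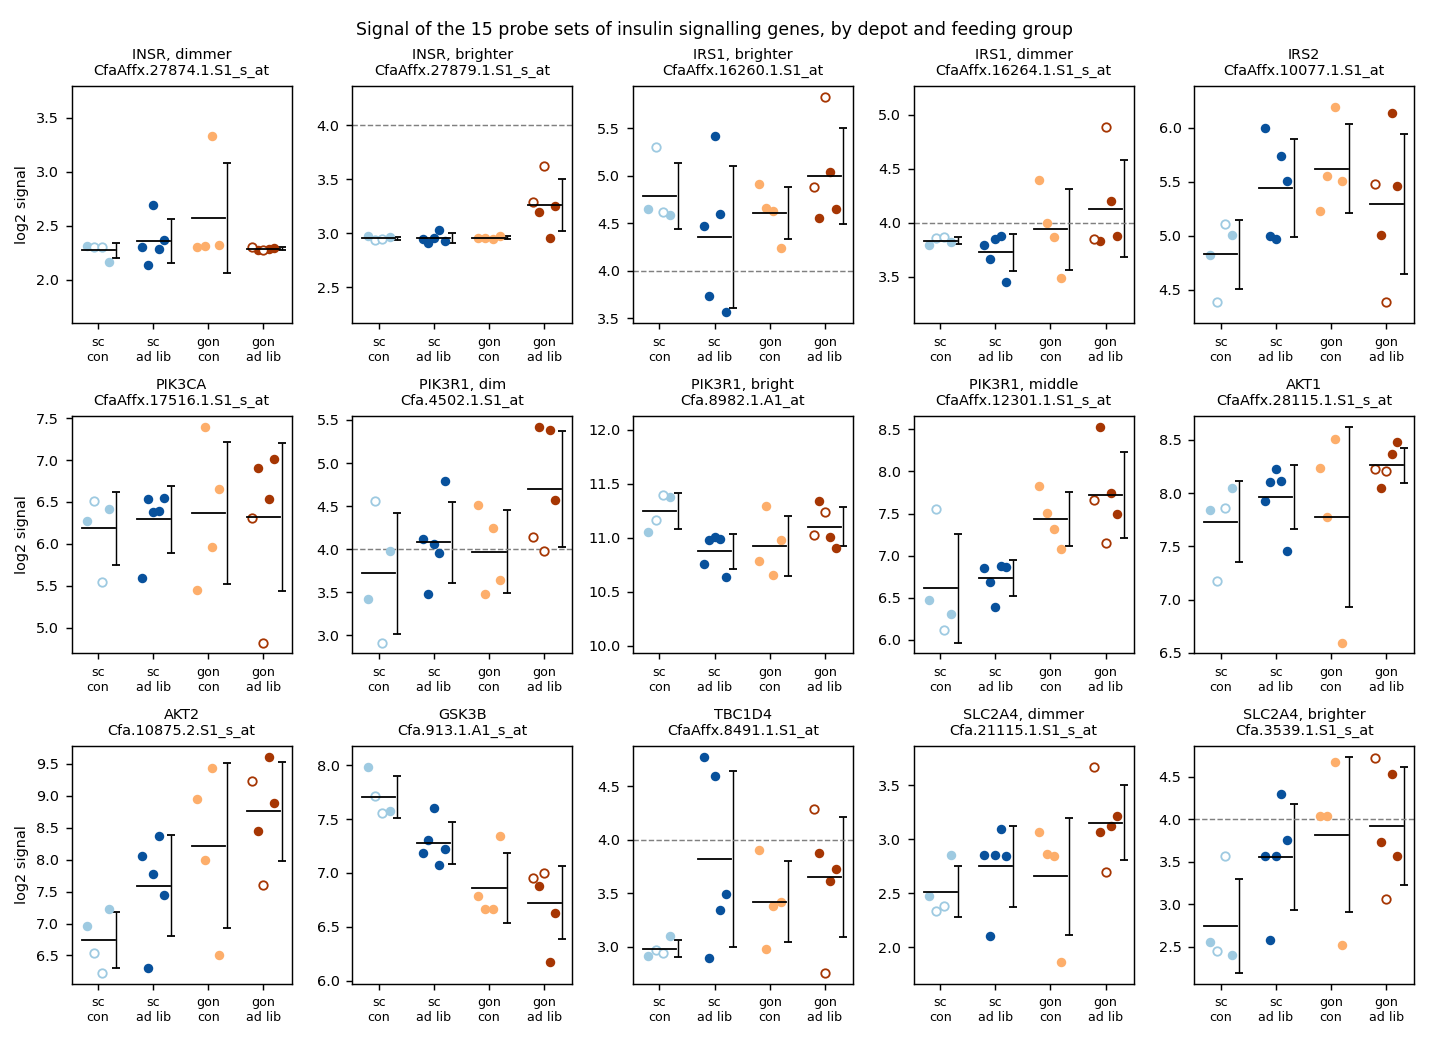
Log2 signal of the 15 probe sets in 4 groups (sc, subcutaneous; gon, gonadal; con, control; ad lib, ad libitum). Points are dogs, open where the array carries muscle or ciliated-cell transcripts, horizontal bars are means, side bars 1 SD (n = 4 control and 5 ad libitum dogs) and the dashed line, where it falls within the axis, is the floor at log2 4. The INSR probe sets lie below it in all 18 arrays, and GSK3B is lower in the gonadal groups.

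The receptor itself was not measurable with this array. Neither INSR probe set reached the floor in any of the 18 arrays, the dimmer reading between 2.14 and 3.33 and the brighter between 2.92 and 3.62. Values that low have no order that can be read as a level. In 4 of the 5 gonadal arrays of ad libitum dogs the brighter probe set read 3.20 to 3.62, against 2.92 to 3.03 in the other arrays, and in a fit without the filter it came to an adjusted p of 0.0619 (limma) between depots in ad libitum dogs. The dimmer probe set did not follow it (r = -0.163 over 18 arrays, a description).

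IRS1 and IRS2 dock PI3-kinase to the activated receptor. IRS1, read by the brighter of its probe sets, lay near the floor, at or above it in 16 of 18 arrays. In subcutaneous fat it read 4.65, 5.31, 4.62 and 4.58 in control dogs 1, 3, 4 and 9 and 4.47, 3.73, 5.42, 4.60 and 3.56 in ad libitum dogs 2, 5, 6, 7 and 8. In gonadal fat it read 4.91, 4.66, 4.63 and 4.24 in the control dogs and 4.88, 4.56, 5.83, 5.04 and 4.65 in the ad libitum dogs. The feeding groups overlapped in both depots. Feeding differences were -0.43 ± 0.33 (log2 difference ± standard error; limma adjusted p = 0.44) in subcutaneous fat and 0.38 ± 0.33 in gonadal fat.

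In each of the 5 ad libitum dogs IRS1 was higher in gonadal than in subcutaneous fat, while in the 4 control dogs the order was mixed. The 2 largest of these 5 differences, 0.83 in dog 5 and 1.09 in dog 8, rest on subcutaneous values below the floor (3.73 and 3.56). The order in ad libitum dogs was the same for the dimmer IRS1 probe set and for the bright and middle PIK3R1 probe sets described below. The share of all tested probe sets with this order was not counted. The IRS1 difference in ad libitum dogs was 0.64 ± 0.31 (limma adjusted p = 0.234). With the dog as a block in the fit, which compares the depots within each animal, it became 0.64 ± 0.17 (adjusted p = 0.0451) and passed, where 8.53% of all tested probe sets did. Without the 4 arrays of other tissues the difference was 0.39 (adjusted p = 0.523). In control dogs it was -0.18 ± 0.35 (adjusted p = 0.822). The depots' feeding responses differed by 0.82 ± 0.47 (adjusted p = 0.748), so a dependence of the depot difference on feeding was not shown. The dimmer IRS1 probe set reached the floor in 4 of 18 arrays only, followed the brighter one (r = 0.754 over 18 arrays, 0.718 after removal of group means) and was not called.

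IRS2 lay at or above the floor in all arrays. In subcutaneous fat it read 4.83, 4.38, 5.11 and 5.01 in control dogs 1, 3, 4 and 9 and 6.00, 5.00, 4.97, 5.74 and 5.51 in ad libitum dogs 2, 5, 6, 7 and 8. In gonadal fat the control dogs read 5.23, 5.55, 6.20 and 5.51 and the ad libitum dogs 5.49, 5.01, 4.39, 6.14 and 5.46. The subcutaneous control group was the lowest of the 4, with a mean of 4.83 ± 0.32 (SD, n = 4), beside 5.44 ± 0.45 (n = 5) in subcutaneous fat of ad libitum dogs and 5.62 ± 0.41 (n = 4) and 5.30 ± 0.65 (n = 5) in gonadal fat.

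For IRS2 the feeding difference was 0.61 ± 0.31 in subcutaneous fat (95% interval -0.05 to 1.27, limma adjusted p = 0.242) and -0.32 ± 0.31 in gonadal fat. Their difference was -0.94 ± 0.44 (interval -1.87 to -0.00, adjusted p = 0.748). In control dogs the gonadal values lay above all subcutaneous ones, as for 13.0% of all tested probe sets in either direction, with a difference of 0.79 ± 0.33 (adjusted p = 0.19). None of these passed. With the actin signal as a covariate the last difference was 0.42 (adjusted p = 0.684).

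PIK3R1 encodes p85alpha, the regulatory subunit that binds IRS proteins and holds the catalytic subunit, and the array reads it with 3 probe sets, called bright, middle and dim here by their mean signal, that did not move together. The bright probe set was the least variable, with an SD over all arrays at percentile 12.5 of tested probe sets. In subcutaneous fat it read 11.06, 11.17, 11.40 and 11.38 in control dogs 1, 3, 4 and 9 and 10.76, 10.98, 11.01, 10.99 and 10.64 in ad libitum dogs 2, 5, 6, 7 and 8. All ad libitum values lay below all control values there, as for 10.1% of all tested probe sets in either direction. The difference was -0.38 ± 0.15 (95% interval -0.69 to -0.06, limma adjusted p = 0.152) and did not pass. In gonadal fat the means were 10.93 ± 0.28 (SD, n = 4) and 11.10 ± 0.18 (n = 5), a difference of 0.18 ± 0.15.

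The middle probe set of PIK3R1 separated the depots instead. In ad libitum dogs 2, 5, 6, 7 and 8 it read 6.85, 6.69, 6.39, 6.87 and 6.87 in subcutaneous fat and 7.66, 8.53, 7.16, 7.75 and 7.50 in gonadal fat. Every gonadal value lay above every subcutaneous one, as for 8.97% of all tested probe sets in either direction, and the signal was higher in gonadal fat of all 5 dogs. The difference was 0.98 ± 0.27 (95% interval 0.41 to 1.56, limma adjusted p = 0.0376), a rise of 1.98-fold. Without the 4 arrays of other tissues it was 1.19 (adjusted p = 0.0124). The call was lost when ad libitum dog 2, 5, 6, 7 or 8 was left out, with 0.77 and an adjusted p of 0.132 without dog 5, and with no filter, with centred arrays or with the muscle score as a covariate (adjusted p = 0.0738, 0.0552 and 0.0557).

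In control dogs 1, 3, 4 and 9 the middle probe set read 6.47, 7.56, 6.12 and 6.31 in subcutaneous fat and 7.83, 7.51, 7.32 and 7.08 in gonadal fat. Dog 3 was the only 1 of the 9 dogs with no gain. Its subcutaneous array carried muscle transcripts, but so did that of dog 4, which read the lowest of the 4, at 6.12. The part of muscle in these values was not tested. The difference of 0.82 ± 0.30 (adjusted p = 0.141) did not pass and was 0.20 (adjusted p = 0.815) with the actin signal as a covariate, whereas in ad libitum dogs it stayed at 0.92 (adjusted p = 0.014). The other 2 probe sets did not separate the depots in ad libitum dogs, with 0.23 ± 0.14 (adjusted p = 0.348) for the bright and 0.62 ± 0.35 (adjusted p = 0.309) for the dim one.

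The dim probe set, at or above the floor in 10 of 18 arrays, ran from 2.92 to 5.42. It followed the middle one (r = 0.718 over 18 arrays, 0.708 after removal of group means), and neither followed the bright one (r = -0.257 and -0.0609). The correlations are descriptions over arrays that share dogs and depots. Between depots in ad libitum dogs the difference was positive in every PIK3R1 probe set, with only the middle one called. For feeding in subcutaneous fat and between depots in control dogs it was negative for the bright one and positive for the middle and dim ones. No single direction can therefore be given for PIK3R1 as a gene in those 2 comparisons. Which transcripts or parts of the gene the probe sets read is not given in the sources used here.

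PIK3CA, the catalytic subunit p110alpha, did not differ detectably in any comparison. Its group means were 6.18 ± 0.44, 6.29 ± 0.40, 6.37 ± 0.85 and 6.32 ± 0.88 (SD; subcutaneous control, subcutaneous ad libitum, gonadal control, gonadal ad libitum). The 95% interval of the feeding difference ran from -0.80 to 1.01 in subcutaneous fat, so changes within that range cannot be told from none. Gonadal values spread from 4.82 in ad libitum dog 6 to 7.40 in control dog 3.

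**Figure D2:**
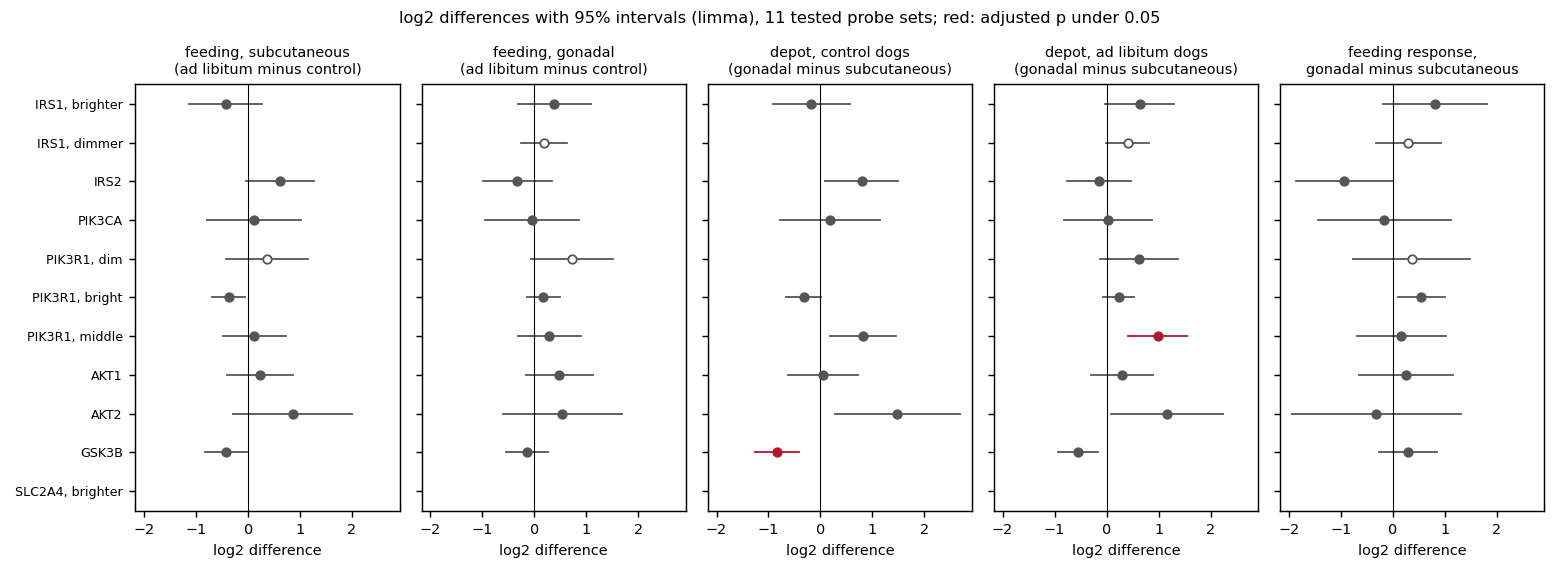
Log2 differences with 95% intervals from limma for the tested probe sets in 5 comparisons (x axis, log2 units). Red marks an adjusted p under 0.05, open points mark differences in which a group mean lies below log2 4, and nothing is drawn where the means compared all lie below it, as for SLC2A4 throughout. Red points are GSK3B in control dogs and 1 PIK3R1 probe set in ad libitum dogs.

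AKT1 and AKT2 are the kinases activated downstream of PI3-kinase, and AKT2 is the form most tied to glucose uptake in fat. AKT1 passed in no comparison, with means of 7.73 ± 0.38, 7.97 ± 0.30, 7.78 ± 0.85 and 8.26 ± 0.17 (SD, in the order used for PIK3CA). Control dog 9 had the lowest AKT1 value, 6.59 in gonadal fat, and all other arrays read 7.18 to 8.51. Feeding differences of 0.23 ± 0.30 (limma adjusted p = 0.66) and 0.48 ± 0.30 in subcutaneous and gonadal fat did not pass.

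AKT2 varied most of the tested members, with an SD over all arrays at percentile 93.5 of tested probe sets. In subcutaneous fat it read 6.96, 6.54, 6.23 and 7.23 in control dogs 1, 3, 4 and 9 and 8.06, 6.31, 7.78, 8.37 and 7.45 in ad libitum dogs 2, 5, 6, 7 and 8. In gonadal fat it read 8.94, 7.99, 9.44 and 6.50 in the control dogs and 9.23, 8.45, 7.60, 9.61 and 8.89 in the ad libitum dogs. In subcutaneous fat 4 of the 5 ad libitum dogs lay above all control dogs, and dog 5 lay among the lowest. In gonadal fat control dog 9 lay apart, below the other 8 dogs.

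The AKT2 feeding difference was 0.85 ± 0.54 in subcutaneous fat (95% interval -0.29 to 2.00, limma adjusted p = 0.343) and 0.54 ± 0.54 in gonadal fat. Gonadal minus subcutaneous was 1.48 ± 0.57 (interval 0.27 to 2.68, adjusted p = 0.159) in control dogs and 1.16 ± 0.51 (adjusted p = 0.178) in ad libitum dogs. AKT2 was higher in gonadal fat of 7 of the 9 dogs, by 1.17 to 3.21, and lower in dogs 6 and 9.

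GSK3B encodes glycogen synthase kinase 3 beta, which AKT inhibits. In subcutaneous fat it read 7.98, 7.72, 7.56 and 7.58 in control dogs 1, 3, 4 and 9 and 7.19, 7.30, 7.60, 7.07 and 7.22 in ad libitum dogs 2, 5, 6, 7 and 8. In gonadal fat it read 6.78, 6.67, 6.67 and 7.34 in the control dogs and 6.95, 6.88, 7.00, 6.17 and 6.63 in the ad libitum dogs. The 4 group means ran in the order subcutaneous control 7.71 ± 0.19, subcutaneous ad libitum 7.28 ± 0.20, gonadal control 6.86 ± 0.32 and gonadal ad libitum 6.73 ± 0.34 (SD, n = 4 or 5).

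GSK3B was lower in gonadal fat than in subcutaneous fat of the same dog in 9 of 9 dogs, by 0.24 to 1.20, which 5.23% of all tested probe sets shared in that direction. In control dogs it fell by 0.84 on the log2 scale from subcutaneous to gonadal fat (difference -0.84 ± 0.20, 95% interval -1.27 to -0.42, limma adjusted p = 0.0328). The 4 gonadal values all lay below the 4 subcutaneous ones, and 13.0% of all tested probe sets did not overlap there, in either direction. In ad libitum dogs the difference was -0.55 ± 0.18 (interval -0.93 to -0.17, limma adjusted p = 0.0714). The groups again did not overlap, as for 8.97% of all tested probe sets in either direction. The depot differences of the 2 feeding groups differed by 0.29 ± 0.27 (adjusted p = 0.791), so neither was shown to be larger.

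The GSK3B call in control dogs was lost without dog 1, 3, 4 or 8 (adjusted p = 0.19, 0.141, 0.106 and 0.0637) and without the 4 arrays of other tissues, where the difference was -0.91 (adjusted p = 0.0946) and rested on 2 subcutaneous control arrays. With the actin signal as a covariate it was -0.61 (adjusted p = 0.24). The actin signal itself was lower in gonadal than in subcutaneous fat of 6 of the 9 dogs (mean difference -0.92, exact sign-flip permutation test, two-sided, p = 0.0898). Across the 9 gonadal arrays GSK3B and the actin signal gave Pearson's r = 0.623 (exact permutation p = 0.0767, adjusted p = 0.307). Spearman's rho was 0.733 (exact permutation p = 0.0311, adjusted p = 0.196). Across the 9 subcutaneous arrays r was 0.459 (exact permutation p = 0.214, adjusted p = 0.483). None passed after adjustment over the 44 relations described below. The part of the actin signal in the GSK3B difference was not tested beyond this. Between feeding groups GSK3B differed by -0.43 ± 0.19 in subcutaneous fat (interval -0.83 to -0.03, adjusted p = 0.185) and by -0.14 ± 0.19 in gonadal fat, and neither passed.

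**Figure D3:**
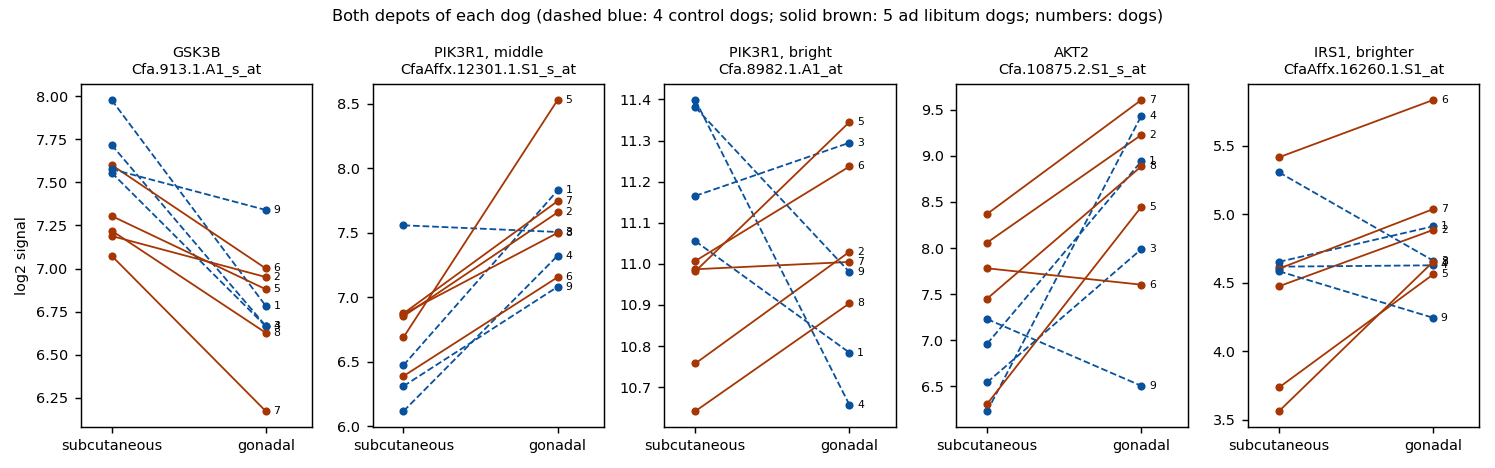
Log2 signal (y axis) of 4 members, PIK3R1 by 2 probe sets, in both fat depots of each dog, joined by a line. Dashed blue lines are the 4 control dogs and solid brown lines the 5 ad libitum dogs, with dog numbers at the gonadal end. GSK3B is lower in gonadal fat of 9 of 9 dogs, and PIK3R1 by its middle probe set higher in 8 of 9. In each of the 5 ad libitum dogs IRS1 and both PIK3R1 probe sets are higher in gonadal fat.

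TBC1D4, the Rab GTPase-activating protein that holds GLUT4 vesicles inside the cell until AKT phosphorylates it, reached the floor in 3 of 18 arrays and was not tested. Its highest values were 4.78 and 4.60 in subcutaneous fat of ad libitum dogs 2 and 6 and 4.29 in gonadal fat of ad libitum dog 2. In subcutaneous fat of the 4 control dogs it read 2.92, 2.97, 2.95 and 3.10. In a fit without the filter no comparison of TBC1D4 passed, with an adjusted p of 0.316 (limma) for feeding in subcutaneous fat.

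SLC2A4 lay around the floor although its product GLUT4 is the insulin-responsive transporter of fat. Its brighter probe set reached the floor in 6 of 18 arrays, which were 1 subcutaneous and 2 gonadal arrays of ad libitum dogs and 3 gonadal arrays of control dogs. In subcutaneous fat it read 2.55, 2.46, 3.57 and 2.41 in control dogs 1, 3, 4 and 9 and 3.57, 2.58, 3.57, 4.30 and 3.75 in ad libitum dogs 2, 5, 6, 7 and 8. In gonadal fat it read 4.04, 4.04, 4.68 and 2.52 in the control dogs and 4.72, 3.73, 3.06, 4.53 and 3.57 in the ad libitum dogs. The low values were those of 3 subcutaneous control arrays, of ad libitum dog 5 in subcutaneous fat and of control dog 9 in gonadal fat.

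All 4 group means of SLC2A4 lay below the floor, at 2.75 ± 0.55, 3.55 ± 0.62, 3.82 ± 0.91 and 3.92 ± 0.69 (SD; in the order used for PIK3CA), so no fold is given for it. No comparison passed (limma adjusted p = 0.274 for feeding in subcutaneous fat, 0.207 for depot in control dogs and 0.64 for depot in ad libitum dogs). The dimmer probe set never reached the floor, reading between 1.86 and 3.66, and was not tested. The probe sets followed each other (r = 0.746 over 18 arrays, 0.751 after removal of group means). In bulk fat, fewer cells of a type and less RNA per cell cannot be told apart.

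The genes whose signal was most like that of SLC2A4 over the 18 arrays were LOC479912 (r = 0.845), AKT2 (0.833), PDGFC (0.826), INPP5K (0.823) and ARFGAP2 (0.82). Over the 14 arrays without other tissues they were ANP32A (0.881), NFATC3 (0.881), AKT2 (0.877), TM9SF4 (0.872) and DDB1 (0.871), so AKT2 was the 1 gene in both lists of 5. The SLC2A4 probe set used reached the floor in 6 of the 18 arrays only, so its correlations rest mostly on values below the floor. For IRS1 the nearest over 18 arrays were AHDC1 (0.798), PIP4P1 (0.735), RELA (0.73), SGTA (0.728) and SENP3 (0.727), and over 14 arrays TRIM4 (0.827), UBE3C (0.81), LTO1 (0.795), KLF15 (0.789) and SEC24C (0.787). These are Pearson correlations of each gene's brightest probe set, given as descriptions over arrays that share dogs, depots and RNA quality. INSR has no tested probe set and none was computed.

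AKT2 correlated with the adipocyte markers across subcutaneous arrays, by Pearson's r and not by Spearman's rho after adjustment. An adipocyte score was taken as the median, over the 10 markers, of each gene's signal minus its mean over all arrays. Across the 9 subcutaneous arrays AKT2 and the score gave Pearson's r = 0.931 (exact permutation p = 0.000604, adjusted p = 0.0266 over 44 relations of members with this score and the actin signal) and Spearman's rho = 0.917 (exact permutation p = 0.00131, adjusted p = 0.0577). Without the 2 dogs farthest from the median score r was 0.948, and over the 7 arrays without other tissues 0.933. In gonadal fat r was 0.595 (exact permutation p = 0.084, adjusted p = 0.308) and rho 0.633 (exact permutation p = 0.076, adjusted p = 0.304), and without the 2 farthest dogs r was 0.737. AKT2 and the actin signal gave r = -0.764 in gonadal fat (exact permutation p = 0.0176, adjusted p = 0.19). There rho was -0.833 (exact permutation p = 0.00827, adjusted p = 0.152). In subcutaneous fat r with the actin signal was -0.549 (exact permutation p = 0.129, adjusted p = 0.368). None of the relations of AKT2 with the actin signal passed after adjustment. The feeding groups hold too few dogs for a value within each of them.

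The adipocyte score ran from -1.30 to -0.06 in subcutaneous fat of control dogs and from -1.17, in dog 5, to 0.64 in that of ad libitum dogs, a difference of means of 0.82 (exact permutation test, two-sided, p = 0.135). The mean level of the 10 markers ran from 10.7 to 11.9 and from 10.9 to 13.1 in these groups, and from 11.1 to 12.9 and 11.4 to 13.0 in gonadal fat of control and ad libitum dogs. The same dog 5 had the lowest AKT2 and SLC2A4 values of its group, whereas control dog 9 had the highest score and the lowest SLC2A4 value of its own. Across the 9 subcutaneous arrays SLC2A4 and the score gave Pearson's r = 0.647 (exact permutation p = 0.072, adjusted p = 0.307), which did not pass. With the score as a covariate, an alternative chosen after seeing the data, the AKT2 feeding difference in subcutaneous fat was 0.12 (limma adjusted p = 0.945), with the actin signal 0.06 (adjusted p = 0.975), and without the 4 arrays of other tissues 0.50 (adjusted p = 0.763). The depot difference of AKT2 in control dogs was 0.84 with the score, 0.33 with the actin signal, and 2.21 without dog 9 (adjusted p = 0.352, 0.85 and 0.0497). Neither the score nor the actin signal differed past a p of 0.05 between feeding groups or depots, and their parts in the AKT2 differences were not tested beyond these fits and correlations.

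The PIK3R1 probe sets were set against the actin signal in subcutaneous fat, and no correlation passed after adjustment. For the bright probe set Pearson's r was 0.88 (exact permutation p = 0.0028, adjusted p = 0.0616) and Spearman's rho 0.767 (exact permutation p = 0.0214, adjusted p = 0.188). For the dim one they were -0.783 (exact permutation p = 0.0129, adjusted p = 0.189) and -0.817 (exact permutation p = 0.0108, adjusted p = 0.152), and for the middle one -0.709 (exact permutation p = 0.0303, adjusted p = 0.19) and -0.8 (exact permutation p = 0.0138, adjusted p = 0.152). The adjustment was over the same 44 relations. Without the 2 dogs farthest from the median actin signal r was 0.689, -0.813 and -0.443 for the bright, dim and middle probe sets. In the fit with the actin signal the feeding difference of the bright probe set in subcutaneous fat was -0.19 (limma adjusted p = 0.622).

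**Figure D4:**
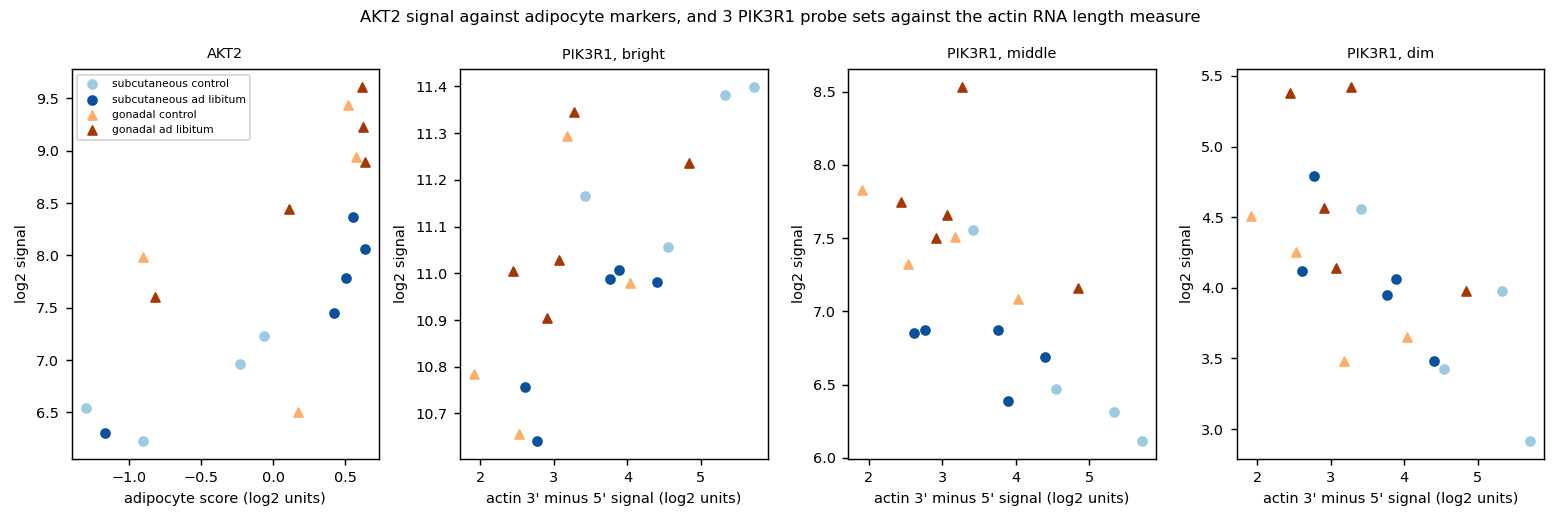
Left panel, AKT2 log2 signal (y axis) against the adipocyte score in log2 units (x axis); other panels, log2 signal of 3 PIK3R1 probe sets against the actin 3' minus 5' signal in log2 units. Points are arrays, circles subcutaneous and triangles gonadal, pale for control and dark for ad libitum dogs. Over the 9 subcutaneous arrays r is 0.931 for AKT2 and 0.88, -0.709 and -0.783 for the PIK3R1 probe sets from left to right.

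The wider pathway was read with 6 lists of 74 genes other than the members, of which 66 are on the array by a single symbol and 49 were tested. In subcutaneous fat 1 of 49 passed between feeding groups (2.04%, beside 2.31% of all genes) and in gonadal fat 0 of 49. Between depots none of the 49 passed in control dogs (0 of 49, beside 2.95% of all genes), and ad libitum dogs gave 4 of 49 (8.16%, beside 7.45% of all genes), 1 higher and 3 lower in gonadal fat. These counts take each gene by its brightest tested probe set. A probe set that does not represent its gene passed for GAB1 between depots in control dogs. Another passed for RAB10 for feeding in subcutaneous fat. The median difference over the 49 was 0.17 for feeding in subcutaneous fat, as for the member genes, and within 0.04 of 0 in the other 4 comparisons.

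Of the receptor partners and docking proteins 10 of 13 were tested. CBL, a ubiquitin ligase recruited to the insulin receptor, read 4.72, 3.40, 2.62 and 3.36 in subcutaneous fat of control dogs 1, 3, 4 and 9 and 6.19, 4.14, 5.89, 5.00 and 4.97 in that of ad libitum dogs 2, 5, 6, 7 and 8. It was higher with ad libitum feeding (1.71 ± 0.43, limma adjusted p = 0.047), though control dog 1 read above ad libitum dog 5. The control mean of 3.53 lies below the floor. The ad libitum mean lies 2.36-fold above the floor, an estimate that leaves out sampling error. The difference of fitted means was 1.18 to 2.11 over the alternatives and passed in 6 of 21 of them, and without the 4 arrays of other tissues its adjusted p was 0.289. In gonadal fat the CBL feeding difference was -0.34 ± 0.43 (limma adjusted p = 0.99994). The depots' feeding responses differed by -2.05 ± 0.60 (adjusted p = 0.748), which did not pass. GAB1, a docking protein of the IRS type, read 6.95, 6.98, 7.35, 7.30 and 6.98 in subcutaneous and 7.66, 8.36, 7.70, 8.13 and 7.97 in gonadal fat of ad libitum dogs 2, 5, 6, 7 and 8. It rose by 0.85 ± 0.19 from subcutaneous to gonadal fat (adjusted p = 0.0142), in both of its tested probe sets, and lost the call without dog 5, 7 or 8 (adjusted p = 0.0718, 0.0552 and 0.0732). In control dogs the GAB1 difference was 0.71 ± 0.21 (limma adjusted p = 0.0788), and 1 of its 2 tested probe sets passed. The depots' feeding responses differed by 0.14 ± 0.29 (adjusted p = 0.914), so a dependence of the depot difference on feeding was not shown.

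In the PI3-kinase and AKT list 5 of 11 genes were tested and 0 passed in any comparison. The smallest p values were those of PIK3CB, the catalytic subunit p110beta, for feeding in gonadal fat (0.45 ± 0.20, limma adjusted p = 0.99994) and of PDPK1, the kinase that phosphorylates AKT, for feeding in subcutaneous fat (0.51 ± 0.24, adjusted p = 0.204). Of the inhibitors 7 of 14 were tested and 0 passed. GRB14, an adaptor that blocks the receptor kinase, had means of 4.80 and 6.76 in subcutaneous fat of control and ad libitum dogs (1.96 ± 0.53, adjusted p = 0.0588). INPP5K, a phosphoinositide phosphatase, had means of 6.44 and 7.58 (1.15 ± 0.33, adjusted p = 0.0688). Both missed the threshold, and 4 of the 7 inhibitors had a positive difference in that comparison. GRB10 was lower in ad libitum dogs (-0.79 ± 0.34, limma adjusted p = 0.1725). So was ENPP1 (-0.79 ± 0.46, adjusted p = 0.302), whose ad libitum mean lay below the floor.

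RPS6KB1, the S6 kinase of the mTOR branch, was the 1 gene called among 9 tested of 12 AKT substrates and targets. In ad libitum dogs it fell by 0.60 on the log2 scale from subcutaneous to gonadal fat (-0.60 ± 0.18, limma adjusted p = 0.0484). Among 13 tested of 16 genes of GLUT4 vesicle traffic RALA, a small GTPase that tethers the vesicles through the exocyst, fell by 0.67 there (-0.67 ± 0.20, adjusted p = 0.0484), in 1 of its 2 tested probe sets. Among 5 tested of 8 genes of other glucose transport and its first steps HK1, which phosphorylates glucose, fell by 0.87 (-0.87 ± 0.24, adjusted p = 0.0394), in 1 of its 2 tested probe sets. These 3 calls were lost with the dog as a block (adjusted p = 0.0563, 0.0646 and 0.0633) and without the 4 arrays of other tissues (adjusted p = 0.196, 0.106 and 0.105).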

How the data were processed

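The authors computed the deposited values, read here as log2 signals, by GCRMA (per the submitters' processing notes), and each array has its own column. They range from 0.68 to 16.51 with array medians of 3.65 to 3.87. Neither the base of the logarithm nor the GCRMA options are stated in the labels or headers. Total RNA was extracted with Trizol and labelled as biotin cRNA, per the labels' protocols. Depth is not defined for arrays, and their number, 18 with 4 or 5 dogs a group, limits the precision.

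Of 43035 probe sets 111 are array controls, and of the others 29254 carry 1 symbol, 439 several and 13231 none in the platform annotation. Probe sets at log2 4 or more in at least 4 arrays (21484, of 8656 genes) were fitted with limma 3.58.1 in R 4.3.3 (statmod 1.5.0) as 4 group means over all 18 arrays without a block, and p values, two-sided, were adjusted by Benjamini-Hochberg over all of them, with a threshold of 0.05. The fit was tested on simulated data. No pair of arrays held identical values.

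Dog numbers pair the depots, since both samples came from 1 animal per the labels. Same-dog deviations from the group means correlated at -0.0505 to 0.528 (median 0.259). In 4 of 9 dogs the gonadal array correlated best with the subcutaneous array of its own dog. That of dog 6 gave 0.0107 with its own and 0.653 with that of another dog, so the values do not by themselves show the pairing. The members and the gene lists were chosen with earlier results of these data known. Every member is described. From each list the genes past the threshold are named (at most 4), otherwise the 1 or 2 with the smallest p. Markers of mesothelium, macrophages, endothelium and stroma were read too. All 6 mesothelial markers on the array reached or exceeded the floor in all gonadal arrays, as did 10 of 10 stromal ones in all subcutaneous arrays. In each of the 4 groups at least 11 of 12 macrophage and 9 of 10 endothelial markers reached or exceeded it in every array. Alternatives were no filter, a filter at log2 6, other normalization, moderation, samples, blocks and probe set choices, leaving out each dog or the 4 arrays of other tissues, and the actin, muscle and adipocyte measures as covariates. Sequences of the probe sets and genes were not used here.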

Additional observations from a re-analysis of the deposited data

Results flagged for a closer look

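Each of the 60 groups of member values (15 probe sets in 4 groups of 4 or 5 dogs) was checked for 1 dog that lies far from the others by Dixon's criterion at 95%, and 6 groups held one. Chance flags about 1 group in 20.

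In subcutaneous fat of control dogs IRS1 (brighter probe set) read 5.31 in dog 3, beside 4.65 in the next dog, and SLC2A4 (brighter probe set) read 3.57 in dog 4, beside 2.55. Both arrays carried muscle transcripts, and their part in these values was not tested. In the same group INSR (dimmer probe set) read 2.16 in dog 9, beside 2.30, and in gonadal fat of control dogs 3.33 in dog 4, beside 2.32, all below the floor.

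In subcutaneous fat of ad libitum dogs PIK3CA read 5.59 in dog 2, beside 6.38 in the next dog. SLC2A4 (dimmer probe set) read 2.11 in dog 5, beside 2.85, below the floor in each dog.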

How the results depend on the processing

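Of 64 differences examined under 23 alternatives 43 kept their sign in all that could be run, and the 56 values that turned sign were called neither before nor after. The 1 member gene and 1 probe set called between depots in control dogs (GSK3B) became 0 with no filter, with only the arrays of the comparison, without the 4 arrays of other tissues and with the actin, muscle or adipocyte covariate, and ranged from 0 to 2 over the fits that leave out a dog. In ad libitum dogs 0 genes became 1 with arrays centred on the median (GSK3B, -0.62, limma adjusted p = 0.0404) and 1 with the dog as a fixed replicate block (IRS1). The 1 probe set called there became 0 with no filter or the muscle covariate and 2 with the replicate block, and ranged from 0 to 1 with a dog left out. The replicate block changed no other member's call, and GSK3B in control dogs kept an adjusted p of 0.0371. Feeding and its difference between depots gave 0 calls among members in every alternative. With 4 and 5 dogs a group, and signals of INSR, TBC1D4 and SLC2A4 near or below the floor, changes of these 3 genes could not be measured. Where leaving out arrays left 2 in a group, their spread was taken from all groups.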
